A study of Arabidopsis thaliana with 8 samples.

Results

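TCH2, TCH3 and TCH4 are touch genes of Arabidopsis thaliana, named after the fast rise of their transcripts in plants that are touched, bent or sprayed. They were chosen by name, and each is read by 1 probe set, so that they make up 3 of the 22746 tested probe sets of the Affymetrix ATH1 array. Written as array name and probe set, these are ATH1.249583_at for TCH2 (AT5G37770), ATH1.267083_at for TCH3 (AT2G41100) and ATH1.247925_at for TCH4 (AT5G57560). Leaf RNA was measured on 8 arrays in 4 groups of 2. The groups were the transgenic line M6PR with 100 mM NaCl (M6PR 100 mM), M6PR without NaCl (M6PR 0 mM), Col wild type with 100 mM NaCl (Col 100 mM) and Col wild type without NaCl (Col 0 mM). The transgene encodes mannose-6-phosphate reductase, an enzyme of mannitol synthesis, and its promoter and the number of independent lines are not given in the sources used here. For M6PR the sample descriptions give Ws as the accession, and the wild type was Col, so if that holds the accession and the transgene cannot be told apart. All plants were 20 days old, leaves came from at least 15 seedlings and 2 replicate pots per combination, and NaCl had been given for 6 days, from day 14 and in steps of 50 mM every 2 days. Per the labels' protocols, salted plants were watered from below and then sprayed from above with the NaCl solution. Whether the plants without NaCl were sprayed is not stated, and if they were not, spraying and salt cannot be told apart.

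A touch or a gust opens calcium channels in plant cells, and the calcium that enters is read by calmodulin and its relatives, proteins that bind it in loops called EF hands. TCH2 (also CML24) and TCH3 (also CML12) are such calmodulin-like calcium sensors. TCH4 (also XTH22) is a xyloglucan endotransglucosylase/hydrolase, an enzyme that cuts and rejoins the xyloglucan chains tying cellulose fibres together in the cell wall. Transcripts of these genes are also known to respond to temperature, darkness and hormones, brassinosteroids among them in the case of TCH4. TCH1, a calmodulin gene, was not analysed here.

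The deposited values are log2 intensities, with array medians from 5.01 to 5.31 and a shared lowest value of 2.15 at which 27.9% to 29.2% of the probe sets of each array lie. Below log2 4 a value is treated here as background. Of the 31 leaf markers 4 were measured, all far above background: RCA, which encodes Rubisco activase, ran from 14.52 to 14.82, and the light-harvesting antenna genes LHCB4.1, LHCB4.2 and LHCB4.3 from 14.55 to 14.69, 13.10 to 14.38 and 11.05 to 13.02. The root hair expansins EXPA7 and EXPA18 ran from 2.15 to 2.37. Of the 4 trichome markers 1 was measured: TRY, a regulator of trichome spacing, was between 4.09 and 7.26 on the other 6 arrays, against 8.25 and 8.16 in Col 0 mM, and its part in the results below was not tested. Of the 8 stomatal markers 3 were measured: FMA, of the last step of guard cell formation, ran from 5.59 to 6.38, MUTE reached at most 2.30 and SPCH at most 4.40. The array labelled M6PR 100 mM replicate 1 had, across probe sets, a slightly higher r with M6PR 0 mM replicate 1 (0.983) than with its own replicate (0.982), and M6PR 100 mM replicate 2 and Col 100 mM replicate 2 correlated best with each other (0.991).

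All 3 touch genes were lowest in unsalted wild type. On both Col 0 mM arrays each of them lay below every array of the other 3 groups, and the distance was widest for TCH4. The share of all tested probe sets with the same order was not counted, so this does not set the 3 genes apart.

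**Figure D1:**
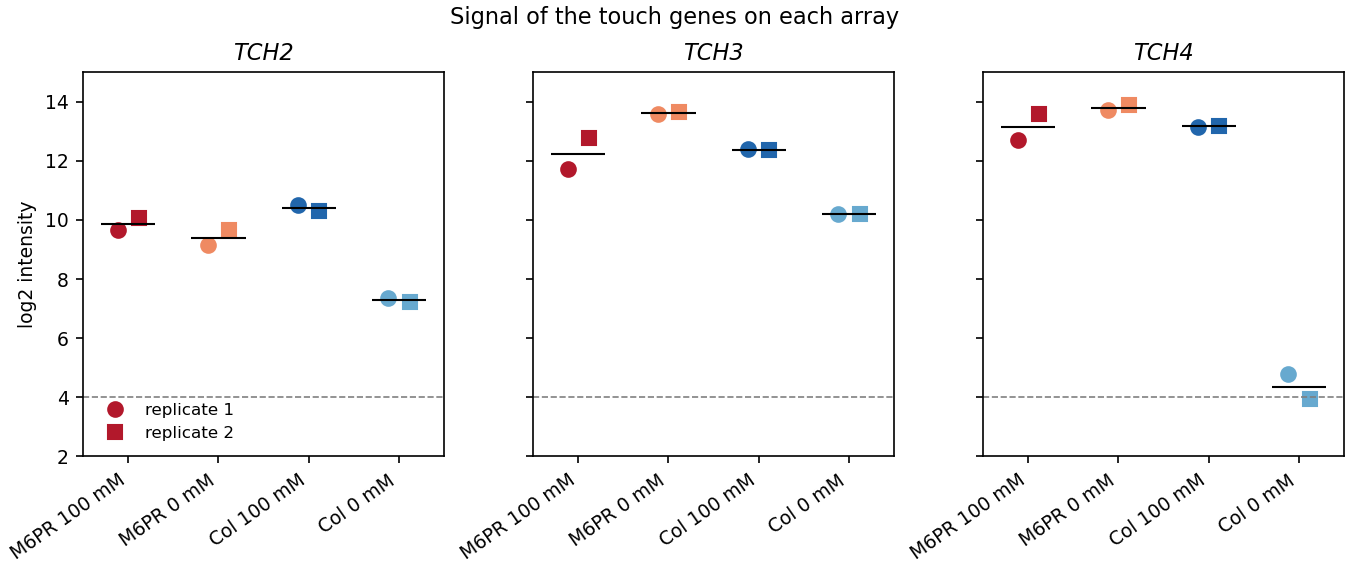
Log2 intensity (vertical axis) of TCH2, TCH3 and TCH4 on each of the 8 arrays, by group; circles are replicate 1, squares replicate 2, black bars the mean of the 2 arrays, and the dashed line the background level of log2 4. TCH4 lies between 12.71 and 13.89 on 6 arrays and at 4.78 and 3.94 on the Col 0 mM arrays; heights are not compared between genes, since probe sets differ in brightness.

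The calcium sensor gene TCH2 had log2 intensities of 9.67 and 10.08 in M6PR 100 mM and 9.14 and 9.67 in M6PR 0 mM. It had 10.51 and 10.30 in Col 100 mM, against 7.36 and 7.21 in Col 0 mM. Its order of group means was Col 100 mM (10.41 ± 0.14, SD, n = 2), M6PR 100 mM (9.87 ± 0.29), M6PR 0 mM (9.40 ± 0.37) and Col 0 mM (7.28 ± 0.10). Neighbours among the first 3 were close: the arrays of Col 100 mM and M6PR 100 mM were 0.23 apart at the nearest, and those of M6PR 100 mM and M6PR 0 mM less than 0.01.

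Without salt TCH2 was 4.35-fold higher in M6PR than in Col (log2 difference 2.12, SE 0.24, limma adjusted p 0.0198). In Col it rose with salt by 8.70-fold (log2 change 3.12, SE 0.24, limma adjusted p 0.0132). In M6PR the change with salt was 0.47 (95% interval −0.17 to 1.11, limma adjusted p 0.681), and with salt M6PR minus Col was −0.53 (−1.17 to 0.11, limma adjusted p 0.441). The salt response of M6PR minus that of Col was −2.65 (SE 0.34), which missed the threshold (limma adjusted p 0.0541). The call between unsalted lines ended when M6PR 0 mM replicate 2 was left out (0.0547), and likewise either Col 100 mM array (0.0505 each) or Col 0 mM replicate 1 (0.0877) or 2 (0.0867), and its adjusted p ran from 0.00240 to 0.183 over 16 alternatives. The salt rise in Col was no longer called without Col 0 mM replicate 1 (0.0505) or without replicate 1 of both salted groups, a pair doubted in earlier work on these data (0.0581; a group left with 1 array is assumed in such fits to vary like the others; range 0.00164 to 0.0682), while the interaction passed without M6PR 100 mM replicate 2 (0.0352; range 0.0126 to 0.306).

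TCH3, the other calcium sensor gene, had 11.71 and 12.79 in M6PR 100 mM and 13.58 and 13.64 in M6PR 0 mM. It had 12.41 and 12.36 in Col 100 mM, against 10.20 and 10.19 in Col 0 mM. Its highest group was thus M6PR 0 mM (13.61 ± 0.04, SD, n = 2), where TCH2 had its second lowest mean. The next, Col 100 mM (12.38 ± 0.03) and M6PR 100 mM (12.25 ± 0.76), overlapped, since both Col 100 mM arrays lay between those of M6PR 100 mM. The 1.08 log2 units between these last arrays were wide for this group: 7.90% of all tested probe sets had replicates as far apart there.

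TCH3 was 10.7-fold higher in M6PR than in Col without salt (log2 difference 3.42, SE 0.36, limma adjusted p 0.0179). Its salt change in Col was 2.19 (SE 0.36) and narrowly missed the threshold (limma adjusted p 0.0512), although the groups were 2.16 apart at their nearest arrays. In M6PR salt went with lower values, by −1.36 (95% interval −2.34 to −0.39, limma adjusted p 0.295). With salt, M6PR minus Col was −0.13 (−1.11 to 0.84, limma adjusted p 1). The responses of M6PR minus Col differed by −3.55 (SE 0.52, limma adjusted p 0.0641).

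Much of this rested on the 2 discordant M6PR 100 mM arrays, which gave the TCH3 fit most of its spread. With either of them left out the salt change in Col was the same 2.19 but its SE was 0.03, against 0.36 with both (limma adjusted p 0.00242). The remaining M6PR 100 mM array then stood alone and its spread was taken from the other groups, so the p-values that involve it leave out the 1.08 log2 units between the 2 arrays. Computed in this way, the salt change in M6PR was −0.82 without replicate 1 (limma adjusted p 0.0232) and −1.90 without replicate 2 (0.000527), and the interaction −3.01 (0.00532) and −4.09 (0.000204). The difference between salted lines had opposite signs, 0.41 without replicate 1 (0.104) and −0.67 without replicate 2 (0.00899). Over all alternatives the adjusted p ran from 0.00242 to 0.536 for the rise in Col, from 0.000527 to 1 in M6PR, from 0.000204 to 0.307 for the interaction and from 0.00899 to 1 between salted lines. The call between unsalted lines ended when M6PR 0 mM replicate 1 (0.0932) or 2 (0.0799) was left out, or Col 0 mM replicate 1 (0.0877) or 2 (0.0768), with a range from 0.00186 to 0.0932.

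The wall enzyme gene TCH4 had 12.71 and 13.58 in M6PR 100 mM and 13.71 and 13.89 in M6PR 0 mM. It had 13.14 and 13.19 in Col 100 mM, against 4.78 and 3.94 in Col 0 mM. One of the 2 Col 0 mM arrays lay under the background level. These 2 arrays were 0.83 apart, which was wide for this group: 1.24% of all tested probe sets had replicates as far apart there. In bulk leaves, fewer cells with the transcript and less of it per cell cannot be told apart. The group means ran from M6PR 0 mM (13.80 ± 0.13, SD, n = 2) over Col 100 mM (13.16 ± 0.04) and M6PR 100 mM (13.15 ± 0.61) to Col 0 mM (4.36 ± 0.59). As for TCH3, the 2 salted groups overlapped.

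Without salt TCH4 was 695-fold higher in M6PR than in Col (log2 difference 9.44, SE 0.41, limma adjusted p 0.00384), the third largest difference of any probe set in that comparison on the deposited values. The 95% interval of the fold ran from 325 to 1486. With the Col 0 mM array under the background level raised to log2 4, the fold between the means of the unsalted groups was 681, for which no interval was computed. In Col it rose with salt by 447-fold (log2 change 8.80, SE 0.41, 95% interval of the fold 209 to 957, limma adjusted p 0.00546), the largest change of all 22746 probe sets on the deposited values. With the same array raised to log2 4 the fold between the means of the Col groups was 438, again without an interval. In M6PR the change with salt was −0.65 (−1.75 to 0.44, limma adjusted p 0.770). Between salted lines the difference, M6PR minus Col, was −0.02 (−1.12 to 1.08, limma adjusted p 1). TCH4 was the touch gene whose salt response differed between the lines past the threshold: M6PR minus Col was −9.46 (SE 0.58, limma adjusted p 0.0148), second in size among all probe sets.

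Both the unsalted line difference and the salt rise of TCH4 passed under all 16 alternatives run, with adjusted p from 0.000288 to 0.0296 and from 0.000840 to 0.0396. The interaction passed without any one array, with adjusted p from 0.00652 to 0.0479. It missed the threshold without both doubted salted arrays (−9.05, 0.0582; range over all 15 alternatives 0.00410 to 0.0691).

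**Figure D2:**
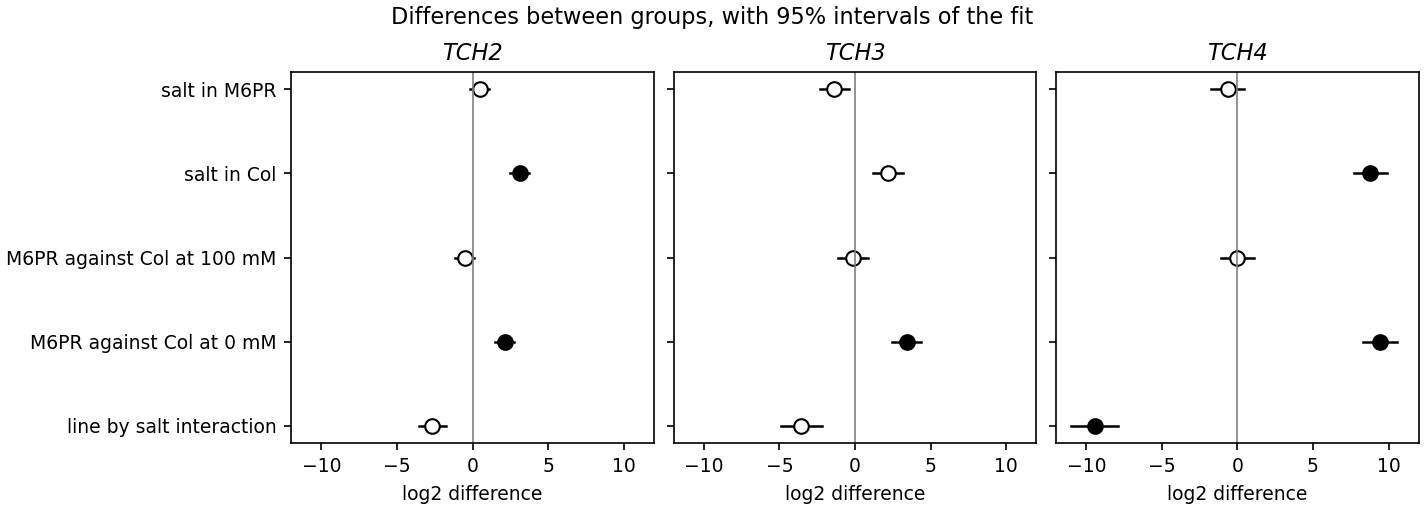
Log2 difference (horizontal axis) of TCH2, TCH3 and TCH4 in the 5 comparisons, first-named line or salted group minus its counterpart, with bars for the 95% interval of the fit; filled points have a limma adjusted p under 0.05. The rise in Col and the difference between unsalted lines lie right of 0 for every gene, up to 9.44 for TCH4, and differences between salted lines lie near 0.

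Counted together, 3 of the 3 touch genes were called higher in M6PR than in Col without salt, where 3.97% of all probe sets were called higher, 3.06% lower and 7.03% in either direction. With salt in Col 2 of 3 were called higher, against 2.25% of all probe sets (2.99% lower, 5.24% in either direction). With salt in M6PR limma called 0 of 3, against 0.171% of probe sets in either direction (0.00879% higher, 0.163% lower), and 1 of 3 (TCH3) had an unadjusted p under 0.05. Between the salted lines limma called 0 of 3, against 0.136% (0.0352% higher, 0.101% lower), and 0 had an unadjusted p under 0.05. For the interaction 1 of 3 was called, as lower, against 0.932% called lower, 0.519% higher and 1.45% in either direction, and all 3 had an unadjusted p under 0.05. Of the 22746 probe sets, 4161 had an unadjusted p under 0.05 for the interaction, 2405 with salt in M6PR and 2947 between salted lines. This number was 6210 with salt in Col and 4472 between unsalted lines. The comparisons of Col with salt and of M6PR without salt both subtract the Col 0 mM arrays. Among the leaf and stomatal markers, 2 were called with salt in Col and 0 in the other comparisons (limma, with an unadjusted p under 0.05 for 1 with salt in M6PR, 2 between salted lines, 0 between unsalted lines and 2 for the interaction). The trichome marker TRY is not in this count and limma called it in no comparison. Its unadjusted p was under 0.05 between unsalted lines (−4.08), with salt in Col (−3.09) and for the interaction (4.76). LHCB4.3 had 11.40 and 11.05 in Col 100 mM, against 13.02 and 12.89 in Col 0 mM (−1.73, limma adjusted p 0.0173). SPCH, a regulator of the first stomatal divisions, had 4.40 and 4.02 in Col 100 mM, against 2.21 and 2.21 in Col 0 mM (2.00, limma adjusted p 0.0153). The SPCH mean in Col 100 mM lay only 1.16-fold above log2 4, and a rise of that size was not tested. The part of LHCB4.3 and SPCH in the rise of the touch genes was not tested.

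With each array centred on its median, the median over all probe sets shifted by −0.22 for salt in Col and by 0.20 between salted lines and for the interaction. Calls for salt in Col were then 1388 higher and 2866 lower, against 512 and 681 as deposited, and for salt in M6PR 46 and 198, against 2 and 37. Between salted lines they were 77 and 62 centred and 8 and 14 under quantile normalization, against 8 and 23 as deposited, and for the interaction 470 and 552 centred, against 118 and 212. Centred, the TCH3 rise in Col passed (1.97, limma adjusted p 0.0126), as did the TCH2 and TCH3 interactions (−2.45, 0.0126 and −3.35, 0.0151). All were smaller in size than as deposited (2.19, −2.65 and −3.55), and passed with a lower SE (0.27, 0.26 and 0.39, against 0.36, 0.34 and 0.52). Centring also moves the 27.9% to 29.2% of probe sets at the shared lowest value. The small differences of TCH3 and TCH4 between salted lines changed sign when centred (0.06 and 0.18).

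The 3 genes did not all share one profile. TCH3 and TCH4 had the same order of group means, with overlapping salted groups (Pearson r 0.92, Spearman rank rho 0.98 over the 8 arrays). TCH2 had another order (rho 0.36 with TCH3 and 0.33 with TCH4, Pearson r 0.75 and 0.93). These values only describe likeness. A difference between 2 probe sets on one array has no absolute meaning, but its change between groups shows unequal change. TCH3 minus TCH2 was 2.04 and 2.71 in M6PR 100 mM and 4.44 and 3.98 in M6PR 0 mM, and 1.90 and 2.05 in Col 100 mM, against 2.84 and 2.98 in Col 0 mM. It was widest in unsalted M6PR, and in both lines the salted arrays lay below the unsalted ones. TCH4 minus TCH3 was 1.004 and 0.792 in M6PR 100 mM and 0.13 and 0.25 in M6PR 0 mM, and 0.73 and 0.83 in Col 100 mM, against −5.42 and −6.25 in Col 0 mM. TCH4 thus lay far below its distance to TCH3 only on the Col 0 mM arrays, and TCH4 minus TCH2 showed the same there, at −2.58 and −3.27, against 2.63 to 4.57 on the other 6 arrays.

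The wider families of these genes were only partly analysed, as the array table names a single gene for 13513 probe sets and lists none of the 3 touch genes. It names several genes for 503 more, which were not used. A gene counted here as measured is one paired with a probe set by this table, and others may be on the array. Genes of these families were taken by symbol or synonym, so any not named in this way are missing from the counts. Of the calmodulin and calmodulin-like genes so named 8 others were measured, 2 of them with every group mean below the background level. Of these 2, AT1G76640 had 5.46 on Col 100 mM replicate 1. In M6PR against Col without salt 2 of the 8 were called higher and 0 lower (median difference 0.26, against 0 for all probe sets). Of all probe sets 3.97% were called higher there and 3.06% lower. An unadjusted p under 0.05 was found for 3 of the 8, against 4472 of 22746 probe sets. With salt in Col 3 of the 8 were called higher and 0 lower (median 1.27, against 0), where 2.25% of all probe sets were called higher and 2.99% lower. The same number, 3 of the 8, had an unadjusted p under 0.05, against 6210 of 22746 probe sets. Limma called 0 of 8 with salt in M6PR (1 at an unadjusted p under 0.05, CML42 at −1.56) and 0 of 8 between salted lines (2 at an unadjusted p under 0.05, the smallest for CML37 at −1.77). Over all 22746 probe sets, 2405 and 2947 had such a p in these comparisons.

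CML38, a calmodulin-like gene, had its group means in the same order as TCH3 and TCH4. It had 8.11 and 9.29 in M6PR 100 mM, 9.72 and 9.67 in M6PR 0 mM and 9.18 and 8.97 in Col 100 mM, against 4.80 and 4.79 in Col 0 mM. Without salt it was 29.8-fold higher in M6PR than in Col (log2 difference 4.90, SE 0.40, limma adjusted p 0.0112), and with salt it rose 19.3-fold in Col (4.27, limma adjusted p 0.0186). Its responses, M6PR minus Col, differed by −5.27 (limma adjusted p 0.0414), the 1 family call for the interaction. CML42 was 8.18-fold higher in M6PR without salt (3.03, SE 0.49, limma adjusted p 0.0408). CML23, the closest relative of TCH2 in the family, took another course. It had 5.11 and 5.28 in M6PR 100 mM, 4.44 and 4.72 in M6PR 0 mM and 7.61 and 6.79 in Col 100 mM, against 4.07 and 4.42 in Col 0 mM. CML23 rose 7.75-fold with salt in Col (2.95, SE 0.32, limma adjusted p 0.0252), and its difference between the unsalted lines was 0.34. CML37 rose with salt in Col from below the background level (2.08, limma adjusted p 0.0321). Its Col 100 mM mean lay only 1.18-fold above log2 4, and a rise of that size was not tested.

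These calls were less stable than those of TCH4. Leaving out M6PR 0 mM replicate 1 or Col 0 mM replicate 1 ended the call of CML38 between unsalted lines (limma adjusted p 0.0647 and 0.0552). The calls for salt in Col of CML23, CML37 and CML38 ended without either M6PR 0 mM array or either Col 0 mM array, those of CML37 and CML38 also without Col 100 mM replicate 1 (limma adjusted p up to 0.103, 0.133 and 0.0827). The CML42 call and the CML38 interaction ended without any one of the M6PR 0 mM, Col 100 mM or Col 0 mM arrays (up to 0.177 and 0.129).

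**Figure D3:**
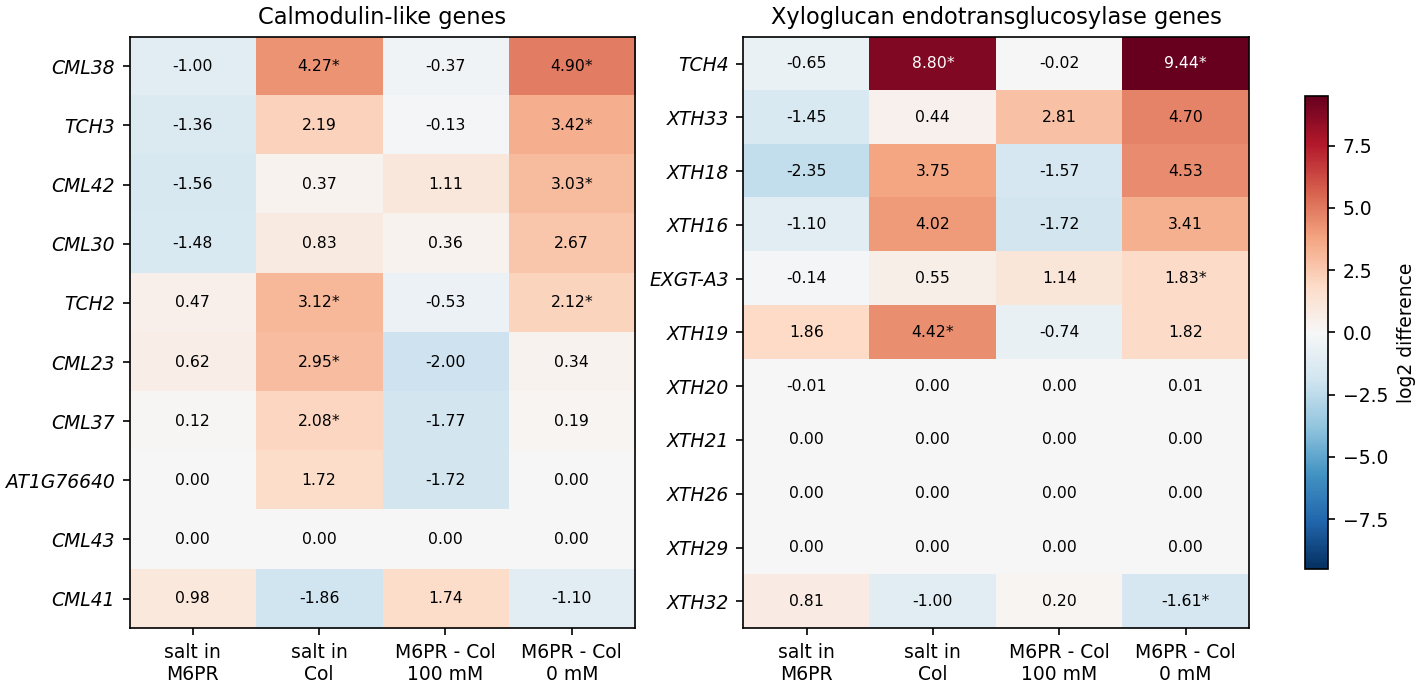
Log2 differences (colour and printed value) of the measured calmodulin-like genes (left) and xyloglucan endotransglucosylase genes (right) in 4 comparisons, M6PR minus Col or salted minus unsalted; an asterisk marks a limma adjusted p under 0.05, and rows of 0.00 lie at the lowest value on nearly all arrays. TCH4 has the widest differences of its family (8.80 and 9.44), and XTH32 at the bottom is lower in M6PR than in Col without salt (−1.61).

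Of the other xyloglucan endotransglucosylase/hydrolase genes 10 were measured, 4 of them (XTH20, XTH21, XTH26 and XTH29) below the background level in every group. Without salt 1 was called higher in M6PR than in Col and 1 lower (median difference 0.92), against 3.97% and 3.06% of all probe sets. An unadjusted p under 0.05 was found for 6 of the 10, against 4472 of 22746 probe sets. EXGT-A3 (XTH27) had 12.70 and 12.68 in M6PR 0 mM, against 10.92 and 10.82 in Col 0 mM, and was 3.55-fold higher (1.83, SE 0.32, limma adjusted p 0.0488). XTH32 had 9.57 and 9.74 in M6PR 0 mM, against 11.22 and 11.30 in Col 0 mM, and was lower (−1.61, SE 0.18, limma adjusted p 0.0202). With salt in Col 1 of the 10 was called higher and 0 lower (median 0.22), against 2.25% and 2.99% of all probe sets. This was XTH19, with 8.79 and 8.41 in Col 100 mM, against 4.21 and 4.14 in Col 0 mM (21.5-fold, limma adjusted p 0.0400). In that comparison 4 of the 10 had an unadjusted p under 0.05, against 6210 of 22746 probe sets.

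XTH18, XTH16 and XTH33, enzymes of the same family, differed widely between groups without passing. XTH18 had 7.97 and 7.45 in M6PR 0 mM and 7.31 and 6.57 in Col 100 mM, against 3.19 and 3.19 in Col 0 mM. XTH16 had 7.22 and 7.52 in M6PR 0 mM and 8.465 and 7.502 in Col 100 mM, against 3.88 and 4.05 in Col 0 mM. XTH33 had 8.02 and 8.43 in M6PR 0 mM and 3.74 and 4.18 in Col 100 mM, against 4.09 and 2.96 in Col 0 mM, and so was low in salted wild type, where TCH4 was high. All 3 spread widely in M6PR 100 mM, with 3.66 and 7.07 for XTH18, 4.96 and 7.58 for XTH16 and 5.59 and 7.96 for XTH33, and they were picked for mention after their values were seen. Limma called 0 of the 10 with salt in M6PR (2 at an unadjusted p under 0.05, the smallest for XTH32 at 0.81), 0 between salted lines (2, the smallest for EXGT-A3 at 1.14) and 0 for the interaction (4, the smallest for XTH32 at 1.81, limma adjusted p 0.0641). Over all 22746 probe sets, 2405, 2947 and 4161 had an unadjusted p under 0.05 in these comparisons. The calls of EXGT-A3 and XTH32 ended without any one of the 4 unsalted arrays, that of EXGT-A3 also without either M6PR 100 mM array, and that of XTH19 without any array but those of M6PR 100 mM (limma adjusted p up to 0.194, 0.105 and 0.159).

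Further up and down the touch pathway few genes could be paired with a probe set. FER, which encodes the receptor kinase FERONIA, needed for normal touch and wall-strain signals, had 9.86 and 10.29 in M6PR 100 mM, 11.013 and 11.002 in M6PR 0 mM and 10.41 and 10.26 in Col 100 mM, against 9.52 and 9.28 in Col 0 mM. It was 3.05-fold higher in M6PR than in Col without salt (1.61, SE 0.17, limma adjusted p 0.0181), and its order of groups was that of TCH3 and TCH4. That call ended without any one of the 4 unsalted arrays (limma adjusted p up to 0.0957). Of 15 measured IQD genes, whose proteins bind calmodulin, 7 had every group mean below the background level. Limma called 0 of the 15 in any comparison, with 1 at an unadjusted p under 0.05 (IQD23 at −1.35 between unsalted lines). Between unsalted lines 4472 of all 22746 probe sets had such a p. Of the calcium-dependent kinases and calcineurin B-like relays none was analysed here, and of the brassinosteroid genes only BRL1, which lay at the lowest value on every array.

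Among rapidly induced genes of touch, wounding and cold, 2 were measured. STZ, a zinc finger transcription factor gene, was called higher with salt in Col (6.65, limma adjusted p 0.01003) and without salt in M6PR (4.84, limma adjusted p 0.0131), and its responses, M6PR minus Col, differed by −5.82 (limma adjusted p 0.0410). WRKY53, a stress and senescence transcription factor gene, had 6.46 and 6.93 in M6PR 100 mM, 5.20 and 5.12 in M6PR 0 mM and 8.33 and 8.65 in Col 100 mM, against 5.05 and 4.95 in Col 0 mM. It rose 11.3-fold with salt in Col (limma adjusted p 0.00763) and its difference between unsalted lines, M6PR minus Col, was 0.16 (limma adjusted p 0.879). With salt in M6PR WRKY53 changed by 1.53 (limma adjusted p 0.106), and between salted lines M6PR minus Col was −1.80 (limma adjusted p 0.0978). Neither was called, and both had an unadjusted p under 0.05. The salt calls of both genes in Col passed without any one array. The other STZ calls ended without M6PR 0 mM replicate 1 (0.0713) or 2 (0.0594) or Col 0 mM replicate 1 (0.0658) between unsalted lines, and without any one of the M6PR 0 mM, Col 100 mM or Col 0 mM arrays for the interaction (0.0510 to 0.121).

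Genes with the most similar profiles were sought among 4884 probe sets of 1 gene that ranged over at least 1 log2 unit, by Pearson r over the 8 arrays. The arrays of a group share their plants' line and treatment, and where Col 0 mM stands far apart it alone sets most of the r, so the values only describe likeness. Nearest to TCH2 were AT1G32920 (r 0.993), STZ (0.986), AT3G56880 (0.984), AT4G27280 (0.983) and AT1G11210 (0.981), with 92 probe sets above 0.9. AT1G32920 shared the order of TCH2, with 10.93 in M6PR 100 mM, 10.34 in M6PR 0 mM, 11.76 in Col 100 mM and 6.82 in Col 0 mM. Nearest to TCH3 were AT1G55450 (0.996), AT1G19020 (0.994), AT2G30990 (0.994), AT4G31000 (0.992) and AT5G24490 (0.991), with 208 above 0.9. AT1G55450 was highest in unsalted M6PR like TCH3, with 10.89 in M6PR 100 mM, 11.94 in M6PR 0 mM, 11.08 in Col 100 mM and 9.34 in Col 0 mM. Nearest to TCH4 were AT3G25600 (0.996), AT2G16660 (0.995), AT2G25735 (0.994), AT3G59080 (0.991) and AT3G55840 (0.991), with 124 above 0.9. AT3G25600 had 9.02 in M6PR 100 mM, 9.45 in M6PR 0 mM, 9.03 in Col 100 mM and 6.23 in Col 0 mM, a range of 3.44 log2 units. The 3 lists of 5 had no gene in common.

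**Figure D4:**
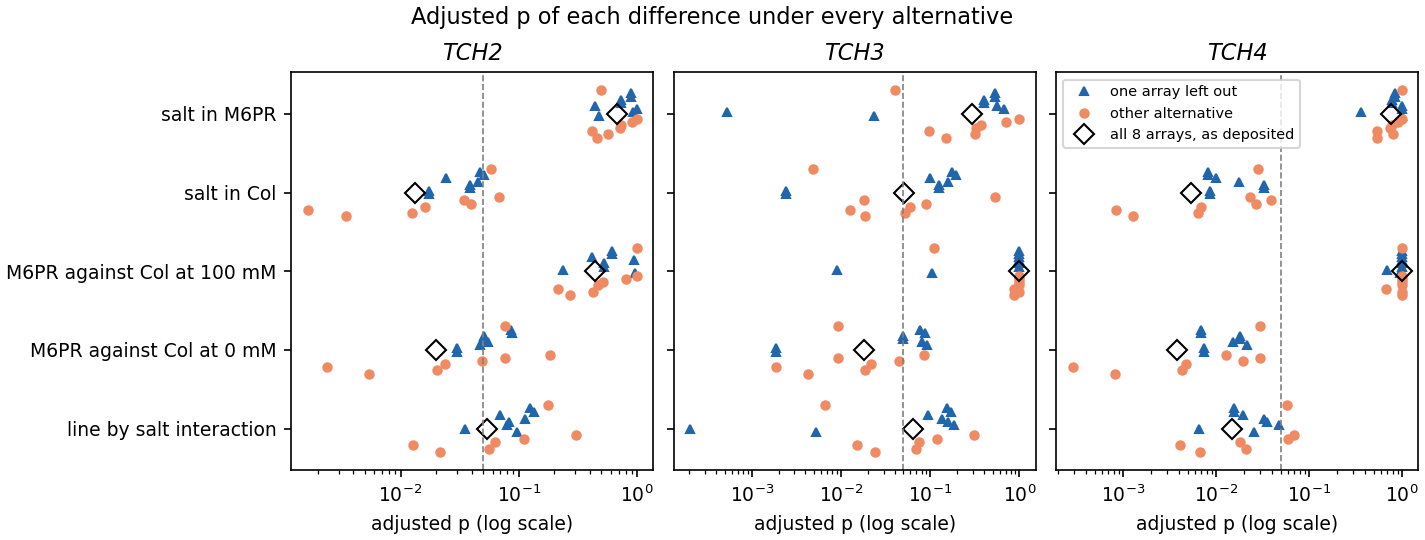
Adjusted p (horizontal axis, log scale) of each comparison of TCH2, TCH3 and TCH4 with all 8 arrays as deposited (open diamonds), with one array left out (blue triangles) and under the other alternatives (orange circles); the dashed line marks 0.05. For TCH4 all points of salt in Col and of M6PR against Col at 0 mM lie left of the line, with the highest at 0.0396 and 0.0296, while those of TCH2 and TCH3 fall on both sides.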

How the data were processed

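The authors deposited 1 log2 intensity for each of 22810 probe sets on every array. GCOS and RMA are named in the submitters' processing notes. Versions, the background model and the arrays normalized together are not given in the sources used here, and the labels say that the Col scans were also deposited under other accessions, so if the lines were run apart, line and array batch cannot be told apart. The 64 array controls were left out. Groups came from the sample titles. Group means were estimated from all 8 arrays by limma 3.58.1 under R 4.3.3 (residual degrees of freedom 4, prior 0.409), with 5 contrasts and two-sided Benjamini-Hochberg adjustment over 22746 probe sets, called at 0.05. The code was also run on simulated data in which, unlike here, every group had the same spread. The outcome of that run is not given here. The number of arrays limits the precision. The labels speak of 2 replicate pots per combination and call the replicates biological. The background level of log2 4 was chosen with the values known, as were the members, the gene lists and the alternatives. Members were paired with genes by the rule that names them, other probe sets by the platform table and RefSeq TAIR10.1. Where several probe sets named a gene, the brightest was used. Named were called members of the lists (up to 5 or 2 per direction), otherwise the smallest p, and the 5 most alike genes. As alternatives the lowest 25% of probe sets by mean were dropped, and quantile normalization, median centring, a robust prior with trend, the replicate number as a block, a fit to the compared arrays alone, a minimum change of 2-fold, and leaving out each array, or replicate 1 of both salted groups, were tried. Saturation was not tested, as no scanner values were used.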

Additional observations from a re-analysis of the deposited data

Results flagged for a closer look

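The salt response differed between the lines, by the interaction test over all probe sets, for 3 of the named genes. For TCH4 the response of M6PR minus that of Col was −9.46 (limma adjusted p 0.0148): log2 intensities averaged 13.15 in M6PR 100 mM and 13.80 in M6PR 0 mM, and 13.16 in Col 100 mM and 4.36 in Col 0 mM. For STZ it was −5.82 (limma adjusted p 0.0410) and for CML38 −5.27 (limma adjusted p 0.0414). Under the alternatives run the TCH4 call held in 12 of 15, and those of STZ and CML38 in 7 of 15 each, with limma adjusted p from 0.00410 to 0.0691, 0.00839 to 0.159 and 0.000851 to 0.164. In each of the 3 the Col 0 mM arrays were the lowest of the 8, an order whose share among all probe sets was not counted. The TCH2 and TCH3 interactions had the same sign and missed the threshold (limma adjusted p 0.0541 and 0.0641).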

How the results depend on the processing

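Across the 15 member comparisons, 192 of 237 alternative values kept their direction and side of the threshold, 19 lost and 18 gained a call, and 8 changed sign, all of them small differences between salted lines. With a minimum change of 2-fold, the calls of TCH2 between unsalted lines (2.12, adjusted p 0.183) and with salt in Col (3.12, 0.0682), TCH3 between unsalted lines (3.42, 0.0844) and the TCH4 interaction (−9.46, 0.0691) were lost. With only the compared arrays TCH2 between unsalted lines was lost (2.12, 0.0771) and TCH3 with salt in Col gained (2.19, 0.0179). With the dimmest probe sets dropped the interactions of TCH2 (−2.65, 0.0214) and TCH3 (−3.55, 0.0241) and TCH3 with salt in Col (2.19, 0.0185) passed, and centred they were −2.45, −3.35 and 1.97. Without both doubted arrays TCH2 was 2.12 (0.0771) between unsalted lines and 3.02 (0.0581) with salt in Col, both lost, as was the TCH4 interaction (−9.05), and TCH3 gained with salt in M6PR (−0.82, 0.0400) and in Col (2.16, 0.00486) and for the interaction (−2.99, 0.00665). Between salted lines the sign turned for TCH3 when centred (0.063) and without both doubted arrays (0.43), and for TCH4 when centred (0.18), under quantile normalization (0.10) and without both (0.39), and also without M6PR 100 mM replicate 1 (TCH3 0.41, TCH4 0.42) and, for TCH4, without Col 100 mM replicate 2 (0.01).

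With single arrays left out, TCH2 ran from 3.02 to 3.22 for salt in Col, 1.86 to 2.38 between unsalted lines and −2.91 to −2.39 for the interaction. TCH3 ran from −1.90 to −0.82 for salt in M6PR, 2.16 to 2.21 in Col, −0.67 to 0.41 between salted lines, 3.39 to 3.45 between unsalted lines and −4.09 to −3.01 for the interaction, and TCH4 from −0.45 to 0.42 between salted lines. The replicate numbers share only a number in the labels: deviations of same-numbered arrays correlated from −0.15 to 0.49 over the pairs of groups. As a replicate block they ended the TCH4 interaction call (−9.46, adjusted p 0.0598) and changed no other call of the members, while of the 14 calls of other named genes it ended 9, among them the interactions of STZ (adjusted p 0.0598) and CML38 (0.0945). The calls over all probe sets, 39 with salt in M6PR, 1193 in Col, 31 between salted lines, 1599 between unsalted lines and 330 for the interaction, ranged from 0 to 829, 60 to 4254, 0 to 1212, 149 to 2358 and 3 to 2234. Among the other calmodulin-like genes the 3 calls with salt in Col ranged from 0 to 4 and the 2 between unsalted lines from 0 to 3, and among the other xyloglucan genes the 1 and the 2 calls there from 0 to 4 and from 0 to 5.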
